A study of Homo sapiens with 6 samples.

Results

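RNA of the oestrogen receptor gene, of the receptor's cofactors and of genes that oestrogen is known to raise was followed in Ishikawa cells, an established human endometrial adenocarcinoma line. The set has 10 genes, chosen by symbol: ESR1, PGR, RARA, NRIP1, GREB1, SIAH2, CA12, ALPP, ALPG and TFF3. All 10 matched a row of the deposited table of 61806 genes, whose coordinates, given here, are those of GRCh38. The 6 libraries of poly(A)-selected RNA comprised 3 with the genotype given as TEFM overexpression and 3 with the genotype EV, whose meaning the labels do not spell out. TEFM is the elongation factor of mitochondrial transcription. All cells grew in DMEM with fetal bovine serum, and the labels record no treatment and no added hormone. The submitters describe the libraries as independent biological replicates. The vector, its promoter and whether each derivative is 1 clone are not stated, so the p-values measure the spread between these libraries and not between derivations of the line.

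Oestrogen receptor alpha, the product of ESR1, is a transcription factor that oestradiol switches on. It binds DNA at a palindrome of GGTCA and its reverse complement spaced by 3 bases, or at single copies of GGTCA beside other factors, and recruits coactivators or corepressors. In the endometrium it drives epithelial growth and raises the progesterone receptor PGR, through which progesterone restrains that growth. Ishikawa cells have long served as a model of oestrogen response, with alkaline phosphatase activity as the readout.

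Depth ranged from 14252668 to 17562807 counts in the TEFM libraries and from 15092555 to 17891047 in the EV libraries. TEFM itself stood at 23.4 ± 0.653 FPKM in the TEFM libraries and 4.31 ± 0.218 FPKM in the EV libraries (SD, n = 3 each). FPKM scales the counts of a gene by its exonic length and by the library total. Of 12 markers of endometrial epithelium, 11 had a mean of at least 1 FPKM, among them EPCAM, KRT8, CDH1, PAX8 and SOX17. Of these 11, 9 rose and none fell in the edgeR test described below, where 21.7% of all tested genes rose and 21.7% fell. FOXA2 was close to 0. The 16 markers of stroma, muscle, endothelium and immune cells summed to 3.94 to 5.42 FPKM in the TEFM libraries and 3.42 to 4.04 FPKM in the EV libraries. DCN and CD3E had no count in any library. COL1A1 and DES were the 2 of these with a mean of at least 1 FPKM. DES, a muscle filament gene, rose, with 1.6 ± 0.547 FPKM in TEFM and 0.773 ± 0.136 FPKM in EV, and reached that mean only through its TEFM values. The part of such cells in the results below was not tested. In bulk RNA, fewer cells that express a gene and less RNA per cell cannot be told apart.

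The first result is that ESR1 was close to absent in both groups, so the label of an oestrogen receptor set is not borne out for the receptor itself at the RNA level. The identity and stock of the line were not checked here. ESR1 (ENSG00000091831, chromosome 6, 151656691 to 152129619, plus strand) had 3, 1 and 2 counts in the TEFM libraries and 0, 0 and 1 in the EV libraries. Every library lay at or under the level of 3 counts that a count of 0 still allows, which for this gene is 0.0122 to 0.0153 FPKM, so no fold is given and a difference was not detectable at this depth. Such limits cover counting error only. SYNE1, which overlaps the 3′ end of ESR1 on the other strand, had 26, 25 and 17 counts in TEFM and 5, 3 and 1 in EV.

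The second oestrogen receptor gene, ESR2, had low counts. It had 112, 124 and 134 counts in TEFM and 111, 103 and 93 in EV, or 0.647 ± 0.125 FPKM in TEFM and 0.527 ± 0.0404 FPKM in EV, and the groups overlapped. ESR2 overlaps SYNE2 on the other strand, and whether counting used strand is not stated, so its counts may include reads of SYNE2. The membrane oestrogen receptor gene GPER1 stood at 0.257 ± 0.0945 FPKM in TEFM and 0.22 ± 0.0265 FPKM in EV. Among the orphan receptors related to ESR1, ESRRA was the most abundant, with 11.3 ± 1.97 FPKM in TEFM and 10.2 ± 0.958 FPKM in EV (log2 fold change 0.19, edgeR adjusted p = 0.118). ESRRG had no count.

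Tests were run with edgeR's quasi-likelihood test on the 14254 genes with a mean of at least 1 FPKM over the 6 libraries, which kept 6 of the 10 genes. ESR1, PGR, ALPP and TFF3 fell below that level. Of the 6 tested, CA12 and ALPG rose, NRIP1, SIAH2 and RARA fell, and GREB1 did not pass an adjusted p of 0.05. Over all tested genes 43.4% passed, 21.7% higher and 21.7% lower in TEFM. With 6 genes, 1 of which (ALPG) passed the level filter only through its TEFM values, a count of 5 is a description. The median log2 fold change was -0.32 over the 6, against -0.00 over all tested genes. The 6 genes showed no overlap between groups in CPM, the counts scaled to the library total, as did 51.9% of all tested genes.

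**Figure D1:**
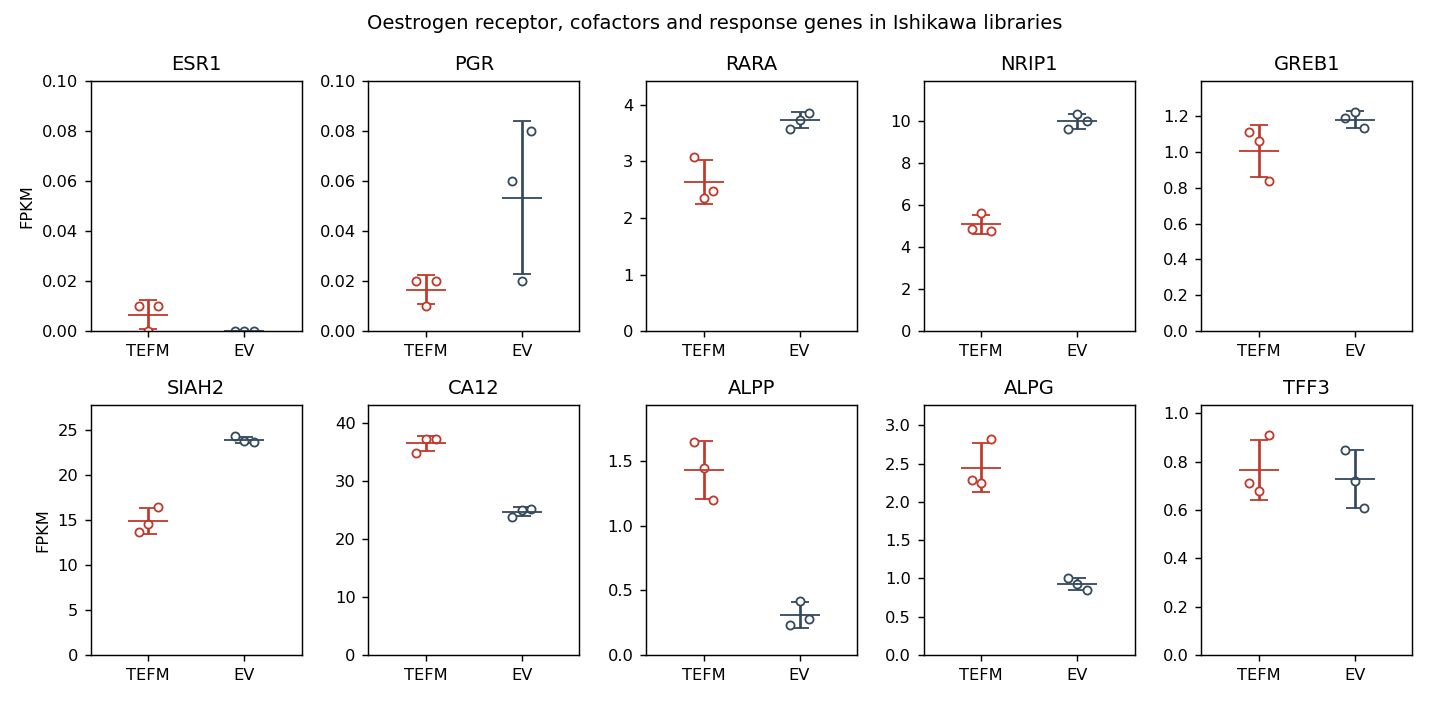
FPKM of the 10 genes in each library (points), with the mean (line) and SD (bar) of the 3 TEFM and the 3 EV libraries; each panel has its own linear axis from 0. CA12, ALPP and ALPG sit higher in TEFM, NRIP1, SIAH2 and RARA lower, and ESR1 and PGR stay under 0.1 FPKM in every library.

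Among the hormone receptors, PGR was also close to absent. PGR (ENSG00000082175, chromosome 11, minus strand) had 4, 3 and 5 counts in the TEFM libraries and 17, 5 and 18 in the EV libraries. The lowest EV library overlapped the TEFM range in CPM, and an exact two-sided permutation test gave p = 0.2, where 0.1 is the smallest p that 3 against 3 libraries allow. In the fit without a filter on low values it came to -1.64 on the log2 scale (SE 0.613, edgeR adjusted p = 0.0412), where 9.23% of 37256 genes were called lower.

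RARA, the retinoic acid receptor alpha gene, which oestrogen raises in breast cancer cells, was the one receptor of the set that was tested. Its level (ENSG00000131759, chromosome 17, 40309180 to 40357643) was 3.08, 2.35 and 2.47 FPKM in the TEFM libraries and 3.58, 3.74 and 3.86 FPKM in the EV libraries. All TEFM values lay below all EV values. Its log2 fold change came to -0.46 (SE 0.114, edgeR adjusted p = 0.00207), a level 1.37-fold lower in TEFM. Its antisense gene RARA-AS1 had 7 to 19 counts in TEFM and 19 to 20 in EV, and RARA itself 167 to 247 in TEFM and 268 to 304 in EV. Its partner RXRA rose, with 5.39 ± 0.613 FPKM in TEFM and 4.05 ± 0.487 FPKM in EV, and RARG, the gamma receptor, did not pass (7.85 ± 0.811 FPKM in TEFM and 7.7 ± 0.868 FPKM in EV).

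NRIP1, which encodes the corepressor RIP140 that binds ligand-bound nuclear receptors and is itself raised by oestrogen, had the largest fall among the 6 tested members. It stood at 4.88, 5.60 and 4.75 FPKM in the TEFM libraries and 9.62, 10.32 and 10.01 FPKM in the EV libraries (ENSG00000180530, chromosome 21, 14961235 to 15065936, minus strand). A non-coding gene on the same strand, ENSG00000235609, overlaps it with 30 to 56 counts in TEFM and 44 to 61 in EV. The NRIP1 groups were far apart relative to their spread. On the log2 scale the difference was -0.93 (SE 0.063, edgeR adjusted p = 1.29e-11), and 2.65% of tested genes had a lower one. An exact permutation test of CPM gave p = 0.1 for it and for each tested gene of the set.

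The genes around NRIP1 also had a median below 0. The 17 other tested genes between 10 and 20 Mb of chromosome 21 had a median log2 fold change of -0.28, with 6 lower (35.3%) and 3 higher (17.6%). Its neighbours RBM11 (-0.72), HSPA13 (-0.40) and USP25 (-0.36) fell, and the pseudogene RPL39P40 did not pass (-0.30). The segments around ESR1 and PGR also had medians away from 0, -0.26 on chromosome 6 between 150 and 160 Mb and 0.19 on chromosome 11 between 100 and 110 Mb. Of 43 other tested genes around ESR1, 17 (39.5%) were lower and 4 (9.3%) higher. Of 28 around PGR, 14 (50%) were higher and 3 (10.7%) lower. Over all tested genes 21.7% were lower and 21.7% higher. Beside ESR1, RMND1 (-0.26) and FBXO5 (-0.31) fell while ARMT1 (-0.07) and MTRF1L (-0.06) did not pass. Beside PGR, JRKL (0.33) and YAP1 (0.17) rose and ARHGAP42 (-0.65) and CEP126 (-0.40) fell, CEP126 having passed the level filter only through its EV values. Segment medians of the other members lay between -0.13 and 0.01. The part of these segments in the members' values was not tested.

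GREB1, a cofactor and early target of the receptor in breast cancer cells, was low and did not pass. It measured 1.11, 1.06 and 0.84 FPKM in the TEFM libraries and 1.19, 1.22 and 1.13 FPKM in the EV libraries, near the level filter. The TEFM values were all lower, by little, and the log2 fold change came to -0.18 (SE 0.119, edgeR adjusted p = 0.232).

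SIAH2, an E3 ubiquitin ligase gene that oestrogen raises in breast cancer cells, fell. It was at 13.67, 14.59 and 16.48 FPKM in the TEFM libraries and 24.29, 23.78 and 23.71 FPKM in the EV libraries (ENSG00000181788, chromosome 3, 150741125 to 150763477). The EV libraries were nearly equal, and every TEFM library lay below them. Its log2 fold change came to -0.65 (SE 0.0688, edgeR adjusted p = 3.94e-08). Its paralogue SIAH1 also fell, with 3.34 ± 0.137 FPKM in TEFM and 4.23 ± 0.288 FPKM in EV. The antisense gene SIAH2-AS1 had 2 to 4 counts in TEFM and 2 to 6 in EV.

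CA12, a membrane carbonic anhydrase gene that the receptor activates in breast cancer cells, was the most abundant member and rose. It reached 34.84, 37.18 and 37.20 FPKM in the TEFM libraries and 23.75, 24.95 and 25.18 FPKM in the EV libraries (ENSG00000074410, chromosome 15, 63321378 to 63381846). No TEFM value came near an EV value. Its log2 fold change came to 0.60 (SE 0.0414, edgeR adjusted p = 1.7e-11), or 1.52-fold. Another carbonic anhydrase gene, CA2, rose with 6.24 ± 0.822 FPKM in TEFM and 2.64 ± 0.411 FPKM in EV, while CA9, the hypoxia-induced family member, stayed low at 0.28 ± 0.118 FPKM in TEFM and 0.22 ± 0.132 FPKM in EV.

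The alkaline phosphatase genes ALPP (placental) and ALPG (germ cell type), which lie next to each other near the end of chromosome 2q, had the largest rises of the set. Their promoters are shown because they rose together and their product family is the oestrogen readout of this line. The first 200 bases of the 300-base RefSeq windows (250 before the start to 50 after it, GRCh38.p14, plus strand) are given, ALPP at chr2:232378501-232378700 and ALPG at chr2:232406594-232406793. Capitals mark GGTCA, the arm of the receptor's palindrome. The stretches and the motif were chosen after the values were seen.
ALPP: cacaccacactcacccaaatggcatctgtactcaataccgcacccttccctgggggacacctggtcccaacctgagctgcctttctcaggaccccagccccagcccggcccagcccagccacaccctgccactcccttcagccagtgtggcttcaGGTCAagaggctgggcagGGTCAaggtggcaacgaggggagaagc
ALPG: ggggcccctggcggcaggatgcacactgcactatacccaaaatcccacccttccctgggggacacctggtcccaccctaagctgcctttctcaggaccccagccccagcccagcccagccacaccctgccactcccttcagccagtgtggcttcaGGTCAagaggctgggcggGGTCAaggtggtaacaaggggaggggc

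The 2 stretches were identical at 169 of 206 aligned positions, and both hold GGTCA at positions 156 and 174. Windows were found for 8 of the 10 genes. On either strand, 5 of the 8 hold GGTCA (PGR, CA12, ALPP, ALPG and RARA), as do 37.4% of all 35116 promoter windows of that length. The full palindrome GGTCANNNTGACC is in none of the 8 and in 0.057% of all windows. The arm lies within the palindrome, so the searches overlap. A match is not a bound site, and a window without one says nothing of the receptor's binding elsewhere.

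ALPG (ENSG00000163286) had 96, 98 and 100 counts in the TEFM libraries and 45, 35 and 34 in the EV libraries, or 2.45 ± 0.324 FPKM in TEFM and 0.93 ± 0.08 FPKM in EV. The groups did not overlap, and the log2 fold change came to 1.42 (SE 0.203, edgeR adjusted p = 3.7e-06), or 2.68-fold. ALPP (ENSG00000163283) had 80, 73 and 49 counts in TEFM and 12, 18 and 13 in EV, with a mean below 1 FPKM over all libraries. In a fit over the 17360 genes with a mean of at least 0.5 FPKM, a filter chosen after seeing the data, it came to 2.26 on the log2 scale (SE 0.287, edgeR adjusted p = 2.14e-07), where 19.3% of genes were called higher. It passed that filter only through its TEFM values. On the log2(FPKM + 1) scale, which understates changes of low genes, the differences were 0.89 for ALPP and 0.83 for ALPG.

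Reads of this pair may be shared. The GENCODE v29 transcripts of ALPP and ALPG were 92.8% identical over aligned bases, and 15.8% of all 100-base stretches of the ALPG transcript occur unchanged in that of ALPP. How the authors counted reads that match both is not stated, so the split between the 2 genes is uncertain. Their sum is free of that split, though not of any reads discarded for matching both. Counted with the intestinal gene ALPI as 1 gene, a choice made after seeing the data, they summed to 10.3 ± 0.442 CPM in TEFM and 3.25 ± 0.295 CPM in EV. The log2 fold change of the sum was 1.71 (SE 0.162, edgeR adjusted p = 5.93e-09). ALPL, the tissue-nonspecific phosphatase gene on chromosome 1, had 18, 18 and 18 counts in TEFM and 4, 4 and 7 in EV. Of genes next to the pair, EIF4E2 had a log2 fold change of 0.39, DIS3L2 one of 0.03 and EFHD1, which passed the level filter only through its TEFM values, one of 1.72. These were named after their values were seen.

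**Figure D2:**
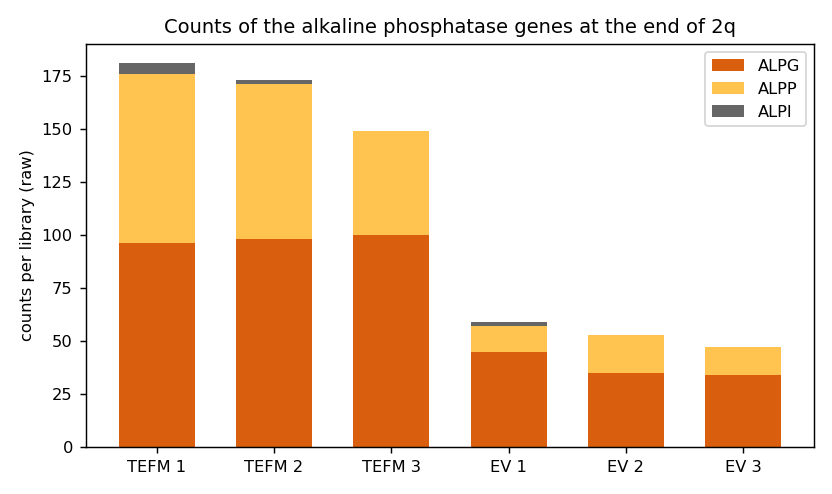
Raw counts of ALPG, ALPP and ALPI stacked for each library. The TEFM libraries hold 149 to 181 counts of the 3 genes together and the EV libraries 47 to 59.

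TFF3, which encodes a secreted trefoil peptide of mucous epithelia, showed no detectable difference. It had 11, 11 and 12 counts in the TEFM libraries and 14, 10 and 9 in the EV libraries. The groups overlapped, and over genes with a mean of at least 0.5 FPKM its log2 fold change was 0.10 (SE 0.493, edgeR adjusted p = 0.899), poorly determined at these counts. TFF1, the classical oestrogen target in the same gene cluster, had 1, 3 and 1 counts in TEFM and 5, 1 and 0 in EV. TFF2 rose on few counts, with 18, 19 and 15 in TEFM and 5, 8 and 4 in EV (log2 fold change 1.64, edgeR adjusted p = 0.00839), and passed the level filter only through its TEFM values.

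Ordered by FPKM, the levels in TEFM ran CA12, SIAH2, NRIP1, RARA, ALPG, ALPP, GREB1, TFF3, PGR and ESR1. RARA and ALPG overlapped there, as did GREB1 with TFF3 and PGR with ESR1. In EV the order was CA12, SIAH2, NRIP1, RARA, GREB1, ALPG, TFF3, ALPP, PGR and ESR1, with overlap between CA12 and SIAH2 and between ALPG and TFF3. CA12 and SIAH2 stood at 36.4 ± 1.36 and 14.9 ± 1.43 FPKM in TEFM, and side by side at 24.6 ± 0.768 and 23.9 ± 0.317 FPKM in EV. The 3 genes of at least 5 FPKM with the centred log2(FPKM + 1) profile over the 6 libraries nearest to that of ESR1 were ITM2B, ZKSCAN1 and MSL3, at Euclidean distances of 0.0185 to 0.03. They were flat. At 0.00 to 0.01 FPKM, ESR1 is flat on this scale because of its low level. The match therefore says nothing of a change in ESR1.

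The lists of genes with which the receptor works differed in direction. Over all tested genes, 21.7% rose and 21.7% fell. Of 4 other steroid and oestrogen-related receptors tested, none rose and 2 fell, a called share of 50% beside 43.4%. NR3C1, the glucocorticoid receptor gene, stood at 4.53, 4.40 and 4.41 FPKM in the TEFM libraries and 7.39, 7.29 and 6.90 FPKM in the EV libraries (log2 fold change -0.65, edgeR adjusted p = 4.11e-09). NR3C2, the mineralocorticoid receptor gene, stood at 1.95 ± 0.0608 FPKM in TEFM and 2.75 ± 0.238 FPKM in EV. ESRRA and ESRRB (-0.21) did not pass.

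Of 26 coactivator genes, 5 rose and 10 fell, with a median log2 fold change of -0.05. Their called share was 57.7%, beside 43.4% of all tested genes. NCOA1 (-0.36), a p160 coactivator, NCOA7 (-0.73), which binds the oestrogen receptor, and the acetyltransferase gene EP300 (-0.22) fell, and PPARGC1A (0.90), a coactivator of mitochondrial genes, rose. Of 22 tested corepressor genes, 2 rose and 11 fell, with a median of -0.12 and a called share of 59.1%. NR2F1 (COUP-TFI) fell to 6.61 ± 0.4 FPKM in TEFM, against 13.3 ± 0.748 FPKM in EV. TBL1XR1 (-0.55) and TBL1X (-0.52), subunits of the NCOR complex, fell, and SAFB2 (0.54), which binds the receptor and represses it, rose. The number of corepressors that rose was 4 without EV replicate 3.

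Of 12 genes listed as chaperones and immunophilins of steroid receptors, 8 rose and 1 fell, with a median of 0.30. Their called share was 75%, beside 43.4% of all tested genes, of which 21.7% rose and 21.7% fell. HSPA8, the constitutive HSP70, reached 403 ± 20.7 FPKM in TEFM and 98.5 ± 16.6 FPKM in EV, and its co-chaperone gene DNAJA1 98.3 ± 2.99 FPKM in TEFM and 48.4 ± 3.76 FPKM in EV. HSP90AA1 (0.64) and STIP1 (0.42) rose. HSP90AA1, DNAJA1 and STIP1 are also raised by heat shock. Of 12 tested transcription factors known to share sites with the receptor, none rose and 6 fell, a called share of 50% beside 43.4% of all tested genes. CEBPB (-1.27), JUN (-0.49) and SP3 (-0.37) fell. FOXA1, the best known pioneer factor of the receptor, was at 3.82 ± 0.378 FPKM in TEFM and 4.35 ± 0.116 FPKM in EV (edgeR adjusted p = 0.236).

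**Figure D3:**
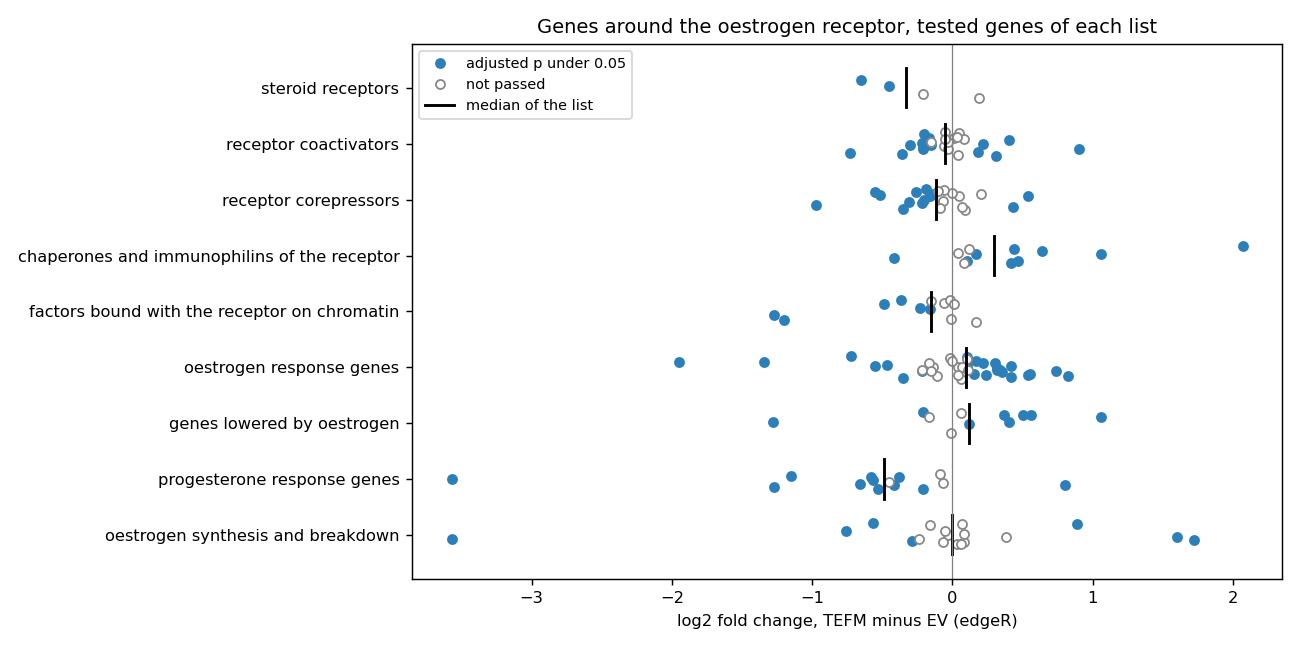
Log2 fold change, TEFM minus EV, of each tested gene in 9 lists around the receptor; filled points passed an adjusted p of 0.05 and black bars are list medians. Medians run from -0.49 for progesterone response genes to 0.30 for chaperones, and each list except the small one of receptors and the one of partner factors holds genes called in both directions.

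A wider list of 59 genes that oestrogen raises, mostly known from breast cells, was only partly expressed, with 38 tested. Of these 18 rose, 7 fell and 13 did not pass, and the median log2 fold change was 0.10. The called share was 65.8%, beside 43.4% of all tested genes, 21.7% higher and 21.7% lower. With limma on log2(FPKM + 1), 11 rose, and 12 rose without composition scaling or without TEFM replicate 3. The G1 cyclin gene CCND1 was at 214.54, 210.37 and 204.84 FPKM in the TEFM libraries and 146.15, 141.62 and 153.73 FPKM in the EV libraries (log2 fold change 0.55, edgeR adjusted p = 8.31e-12). KRT19 (0.82) and MYC (0.42) rose. STC2, a secreted glycoprotein gene that is also a target of the stress factor ATF4, fell to 17.1 ± 4.27 FPKM in TEFM, against 44.7 ± 1.41 FPKM in EV. Named after their values were seen, the disulphide isomerase genes AGR2 (-0.72) and AGR3 (-1.95), neighbours on chromosome 7, fell, and AGR3 passed the level filter only through its EV values. Genes that oestrogen lowers in breast cancer cells gave 6 higher and 2 lower of 11 tested, with a median of 0.12. Their called share was 72.7%. PHLDA1 (1.06), LGALS1 (0.56) and TP53INP1 (0.37) rose, and IGFBP5, an IGF binding protein gene, fell to 1.08 ± 0.0723 FPKM in TEFM, against 2.69 ± 0.129 FPKM in EV. The signed medians of the 2 lists, 0.10 and 0.12, stood beside -0.00 over all tested genes. Taken without sign, the median log2 fold changes were 0.22 and 0.37, beside 0.21 over all tested genes. The part of oestrogen in the 2 lists was not tested.

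Of 14 progesterone response genes tested, 10 fell and 1 rose, where 21.7% of all tested genes were lower and 21.7% higher. Their median log2 fold change was -0.49, beside a PGR level of 5 counts or fewer in each TEFM library and 18 or fewer in each EV library. TSC22D3 was at 8.85, 10.30 and 9.87 FPKM in TEFM and 22.78, 23.38 and 20.07 FPKM in EV (log2 fold change -1.15, edgeR adjusted p = 5.35e-13), and DUSP1 at 14.1 ± 1.77 FPKM in TEFM and 23.0 ± 1.35 FPKM in EV. SGK1 (0.80), a serum- and glucocorticoid-regulated kinase gene, was the one that rose, and it passed the level filter only through its TEFM values. TSC22D3, DUSP1, FKBP5, PER1, KLF9 and SGK1 are also known targets of the glucocorticoid receptor. Without a filter on low values, 3 rose.

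Among the enzymes that set the active oestrogen level of a cell, 2 that catalyse opposite steps, SULT1E1 and STS, changed in opposite directions. SULT1E1, the oestrogen sulphotransferase and also one of the progesterone response genes above, which inactivates oestradiol by adding sulphate and is raised by progesterone in the endometrium, had 5, 20 and 11 counts in the TEFM libraries and 174, 134 and 138 in the EV libraries. In FPKM it was 0.353 ± 0.206 in TEFM and 4.35 ± 0.286 in EV, with no overlap. Its log2 fold change came to -3.57 (SE 0.263, edgeR adjusted p = 6.71e-11), or 11.9-fold lower, and the gene passed the level filter through its EV values.

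STS, the steroid sulphatase that removes that sulphate, moved the other way. It was at 4.27, 4.28 and 4.64 FPKM in the TEFM libraries and 1.29, 1.31 and 1.5 FPKM in the EV libraries (log2 fold change 1.72, SE 0.0802, edgeR adjusted p = 1.29e-14), or 3.3-fold higher. CYP1A1, which hydroxylates oestrogens and is the classical target of the dioxin receptor, was at 13.7 ± 0.534 FPKM in TEFM and 7.67 ± 2.1 FPKM in EV, with the EV libraries spread from 5.67 to 9.86. CYP17A1, which makes androgen precursors, was low at 1.6 ± 0.0954 FPKM in TEFM and 0.533 ± 0.19 FPKM in EV (log2 fold change 1.6, named after its value was seen), and passed the level filter only through its TEFM values. HSD17B7, which reduces oestrone to oestradiol and also serves cholesterol synthesis, fell to 2.55 ± 0.28 FPKM in TEFM, against 4.43 ± 0.108 FPKM in EV. HSD17B12, which reduces oestrone and elongates fatty acids, was named after its value was seen and stood at 13.2 ± 0.585 FPKM in TEFM and 16.6 ± 0.565 FPKM in EV. Of 32 enzymes listed, 18 were tested, with 3 higher, 4 lower and 11 that missed the threshold, a called share of 38.9% beside 43.4% of all tested genes. The aromatase gene CYP19A1 stood at 0.143 ± 0.0289 FPKM in TEFM and 0.107 ± 0.0351 FPKM in EV. RNA levels do not measure enzyme activity or hormone.

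**Figure D4:**
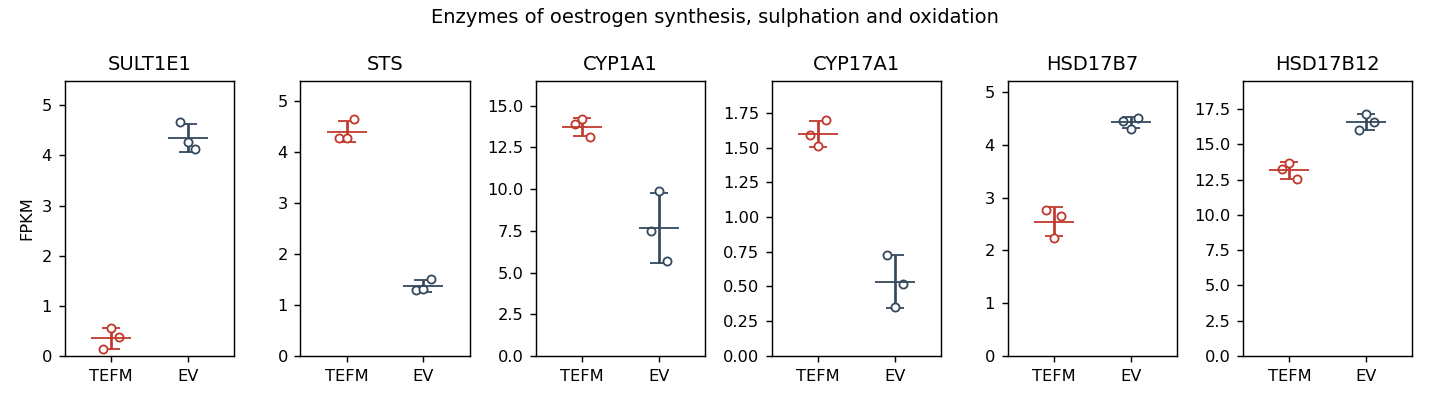
FPKM of 6 enzymes of oestrogen metabolism in each library (points), with mean and SD of the 3 TEFM and the 3 EV libraries on linear axes from 0. SULT1E1 stays under 0.6 FPKM in TEFM and over 4 FPKM in EV, and STS over 4 FPKM in TEFM and at most 1.5 FPKM in EV.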

How the data were processed

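Per the labels' protocols, RNA was extracted with TRIzol, selected with oligo(dT) beads, fragmented and randomly primed. The tool and build listed per the submitters' processing notes are cutadapt 1.9.1 and hg19. No source used here names the aligner, the counter or strandedness, so reads of overlapping genes on opposite strands cannot be told apart. Coordinates in the deposited table match GRCh38 instead: of the 58254 IDs it shares with GENCODE v29, 99.98% overlap their gene there. The authors deposited raw counts and FPKM per library, and the FPKM equal counts per kilobase of deposited exonic length and per library total, within 0.005. Depth was 14252668 to 17891047 counts.

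Counts were tested across genes with the quasi-likelihood test of edgeR 4.0.16 in R 4.3.3 (TMM, mean FPKM of at least 1, two-sided, Benjamini-Hochberg over all tested genes, threshold 0.05). Standard errors come from the F statistic. The code was tested on simulated data. Within groups, chi-square per degree of freedom between libraries was 2.09 to 3.91, above sampling noise. Alternatives covered scaling, filters, DESeq2 1.42.0, limma 3.58.1, a block for replicate number and single libraries left out. Lists are described by counts and medians, and some genes are in more than 1 list. Of the listed symbols, 1 had no row of its own, being an older name of CCN5, which matched. Members and lists were chosen with earlier results of these data known. Named are all members, up to 4 tested genes per list by smallest p, the 3 genes nearest to ESR1 in profile, and tested neighbours where the median of a 10 Mb segment lay at least 0.15 from 0. Other genes were named after their values were seen. Some listed genes are not reported here by name.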

Additional observations from a re-analysis of the deposited data

How the results depend on the processing

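The log2 fold changes of NRIP1, SIAH2, CA12, RARA, ALPG and ALPP kept their direction and passed under every alternative run for them, and GREB1 passed under none, with an adjusted p of 0.135 to 0.654. Across alternatives NRIP1 ran from -1.01 to -0.86, SIAH2 from -0.73 to -0.59, CA12 from 0.55 to 0.64 and RARA from -0.59 to -0.38. TFF3 ran from -0.04 to 0.24 and passed nowhere, with its sign reversed without TEFM replicate 3 (-0.04) and without EV replicate 3 (-0.01). Labels give both groups the same replicate numbers, but same-numbered libraries did not deviate together (r of -0.0157, 0.0161 and -0.0133); with the replicate block 2986 genes were higher and 2949 lower, and NRIP1 was at -0.94. Without composition scaling, 2576 genes were higher and 3679 lower.

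Filters set which genes are tested. At a mean of at least 5 FPKM, 7743 genes were tested in place of 14254, with 2046 higher and 2103 lower. Among members, 1 was higher. Counts called there are out of fewer genes. There, 1 steroid receptor, 3 oestrogen response genes, 1 gene lowered by oestrogen, 6 progesterone response genes and 2 oestrogen enzymes were lower; 3 coactivators, 0 progesterone response genes, 1 oestrogen enzyme and 0 markers of other cell types were higher. Of 9 tested relatives of the members, 3 were higher and 2 lower, a called share of 55.6% beside 43.4% of all tested genes. At a mean of at least 5 FPKM, 0 relatives were higher and 1 lower, and without a filter 5 and 4. Without a filter or at 0.5 FPKM, 3 progesterone response genes were higher, and without one, 4 markers of other cell types. With limma at either pseudocount, 1 or 0.1, 11 oestrogen response genes were higher and 1 relative lower; the cause was not tested. With a library left out, 0 to 1 steroid receptors (1 without EV replicate 3 or TEFM replicate 3) and 2 to 4 corepressors were higher, and 1 to 2 relatives lower (1 without replicate 2 or 3 of either group). Depth limits ESR1, PGR, TFF1 and TFF3, which had 18 counts or fewer in each library.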
